A study of Homo sapiens with 4 samples.

Results

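Collagen chains, the subunits of the triple-helical proteins of the extracellular matrix, were followed in clone cells of SW620, a human colon cancer cell line derived from a lymph node metastasis. The members were all genes whose symbol reads COL, a number, A and a number, taken from probe sets that the platform annotation assigned to 1 gene. These were 43 genes on 112 probe sets, of 19777 genes on 54675 probe sets, and each gene was represented by its brightest probe set over the 4 arrays. The labels describe a bead separation of SW620 cells that display CD133, a membrane glycoprotein (CD133+), from those that do not (CD133-). A clone was grown from a single cell of each kind, and the expanded clones were purified by CD133 once more. Each group was 1 clone on 2 arrays, labelled CPC1 for CD133+ and CNC1 for CD133-, so the effect of CD133 and that of the clone cannot be told apart. Both clones were cultured in the same way as the parent line and the labels name no drug. Whether the paired arrays of a clone hold RNA of separate cultures is not stated in the labels. The p-values therefore measure only the spread between arrays, which may be technical. Values are log2 signals, and differences are CD133+ minus CD133-.

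A collagen chain is built of repeats of glycine and other residues, often proline and hydroxyproline, and chains wind around each other into a triple helix in the endoplasmic reticulum. Fibrillar collagens such as type I form the fibres of connective tissue and come mostly from fibroblasts. Type IV forms the network of the basement membrane on which the colon epithelium rests, and types VII, XV and XVIII tie that membrane to the tissue around it. Other chains decorate fibrils, form beaded filaments or span the cell membrane.

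PROM1, the gene of CD133, had log2 signals of 8.46 and 8.73 in CD133+ and 3.31 and 3.35 in CD133- cells, which checks the labels. The CD133- signal was not above background, so the difference was at least 12.5-fold (limma adjusted p = 4.21e-05, measured means 8.59 and 3.33). All 8 colon epithelial markers were above background on 4 arrays, with EPCAM and the keratins KRT8 and KRT18 among them. Of 8 fibroblast and pericyte markers 5 were above background on 4 arrays (PDGFRB, THY1, LUM, ACTA2 and TAGLN), while PDGFRA, FAP and DCN were above it on none. The summed signal of that list, on the log2 scale, was 8.66 and 8.77 in CD133+ and 8.48 and 8.57 in CD133- cells. Of 4 endothelial markers only PECAM1 was above background on any array, with sums of 6.45 and 6.81 against 6.36 and 6.70, and 0 of 3 leukocyte markers were. No tested marker of these lists passed the test between clones, and their part in the results was not tested. Over the 15821 genes tested the arrays of each clone correlated with r = 0.992, and arrays of different clones with r from 0.977 to 0.988. CD133+ replicate 2 stood apart in ACTB, where the probes at the 3' end exceeded those at the 5' end by 1.92 on the log2 scale, against 0.71 in CD133+ replicate 1 and 1.18 and 0.92 in CD133- cells. In GAPDH that array did not stand apart, with excesses of 0.097 and 0.090 in CD133+ replicates 1 and 2 and 0.017 and 0.026 in CD133- cells.

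The SW620 clones expressed few of the collagen genes at a measurable level. A gene was taken as above background on an array where its signal exceeded 4.95, the 95th percentile of the mean levels of 82 olfactory receptor genes, receptors of nasal neurons. By this measure 12 of 43 collagen genes (27.9%) were above background on all 4 arrays, against 55.5% of all genes. They were COL4A2, COL16A1, COL7A1, COL6A1, COL1A1, COL18A1, COL13A1, COL27A1, COL11A2, COL26A1, COL6A2 and COL9A3. COL20A1 exceeded it on both CD133+ arrays (5.37 and 5.24) and on 1 CD133- array (4.73 and 4.97), and COL9A2 on 1 CD133+ array. The other 29 were above background on no array, and 15 of these, with mean levels from 2.91 to 3.74, lay in the lowest 20% of genes by level (below 3.75) and were not tested. With that lower limit in place of the olfactory genes, 22 of the 43 genes were above it on all 4 arrays. The share of all genes above the lower limit on 4 arrays was not counted, and the 55.5% holds only for the limit of 4.95. Signals of different probe sets depend on their probes, so levels are set against background and not against each other.

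**Figure D1:**
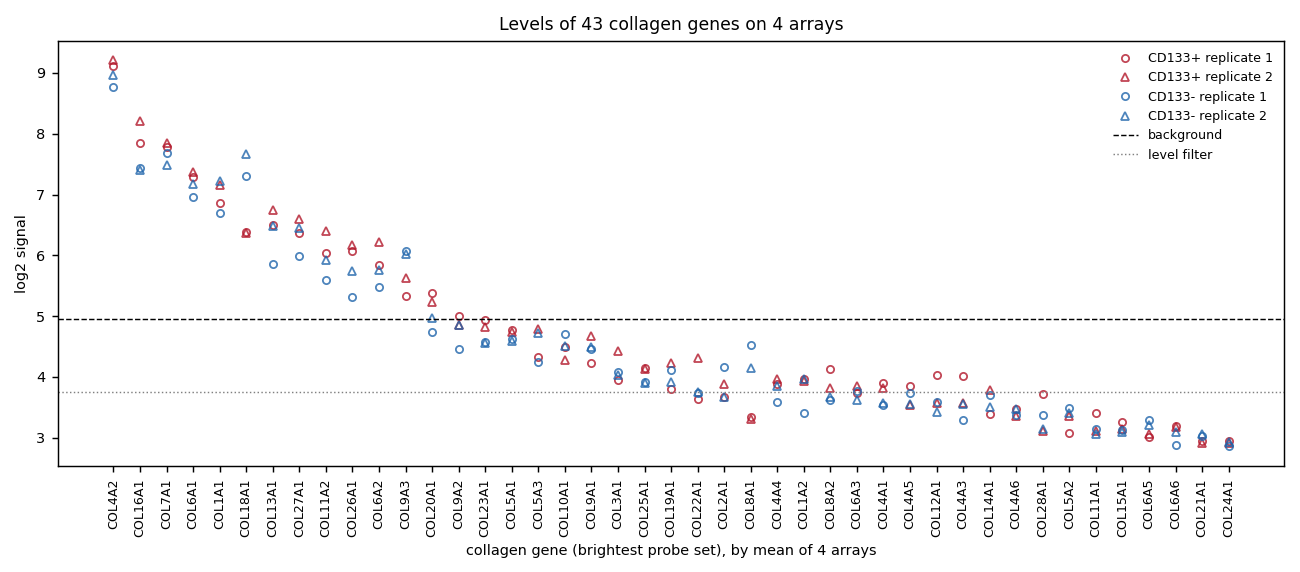
Log2 signal of the brightest probe set of each of the 43 collagen genes (x axis, ordered by mean) on the 2 CD133+ arrays (red) and the 2 CD133- arrays (blue), with circles for replicate 1 and triangles for replicate 2. The dashed line is the background of 4.95 and the dotted line the level filter of 3.75; 12 genes lie above the dashed line on all 4 arrays, and COL18A1 and COL9A3 are the 2 of these with both CD133+ arrays below both CD133- arrays.

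In CD133+ cells 2 of the 28 collagen genes tested fell and 0 rose at a limma adjusted p under 0.05. Over all 15821 genes tested 3.65% passed, 2.34% lower and 1.31% higher. The genes that fell were COL18A1, a chain of the basement membrane zone, and COL8A1, a chain of a short-chain network collagen. COL8A1 was at background on every array. Its CD133+ mean of 3.33 lay below the level filter of 3.75, so it entered the test only through the CD133- arrays (mean 4.33). At an unadjusted limma p under 0.05 there were 3 higher and 3 lower members, 6 of 28 against 20.6% of all genes. For a single gene, 2 arrays against 2 allow no two-sided exact permutation p under 0.333, and limma passes genes here by pooling variance over the whole array. The median standard error of the difference was 0.20 over the 28 members and 0.18 over all genes.

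COL18A1 encodes the chain of type XVIII collagen, a heparan sulfate proteoglycan of basement membranes whose C-terminal fragment is endostatin. Its brightest probe set (209081_s_at) read 6.39 and 6.38 in CD133+ and 7.31 and 7.66 in CD133- cells, all above background. Both CD133+ arrays lay below both CD133- arrays, and the gap was wider than the spread within either clone. In RNA from a whole culture, fewer cells with the transcript and less of it per cell cannot be told apart. The means were 6.38 ± 0.012 (SD, n = 2) and 7.48 ± 0.25 (SD, n = 2). They differed by -1.10 (SE 0.19, 95% interval -1.54 to -0.66), or 2.14-fold lower in CD133+ cells (limma adjusted p = 0.0231). The other probe set, 209082_s_at, read 6.35 and 6.67 against 7.01 and 7.22, also with no overlap between clones. Its difference was -0.61 (SE 0.19), which did not pass in a limma fit over all probe sets (adjusted p = 0.228), where the brighter one did not pass either (adjusted p = 0.0624). With the mean of both probe sets COL18A1 was at -0.85 (limma adjusted p = 0.0472). Without CD133- replicate 2 the difference was -0.92 and the limma adjusted p 0.0751, and in a fit without a trend of variance on level it was 0.0773. The 20 tested genes next to COL18A1 on chromosome 21, 10 on each side, had a median difference of 0.17, with 14 positive and 0 called. Of all genes tested 58.5% were positive and 3.65% called, with a median of 0.058, so 0 calls among 20 genes says little. Any part of the region in the difference of COL18A1 was not tested.

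COL8A1 encodes a chain of type VIII collagen, a short network-forming collagen known from the membranes below endothelial cells. Probe set 226237_at read 3.34 and 3.31 in CD133+ and 4.52 and 4.15 in CD133- cells. Both CD133- arrays were higher, yet all 4 arrays lay below the background of 4.95, so no fold is given. The difference was -1.01 (SE 0.17, 95% interval -1.41 to -0.61, limma adjusted p = 0.0231). The other 2 probe sets of COL8A1 read between 3.07 and 3.21 on every array, with differences of 0.073 and 0.0045. When the same genes were tested without CD133- replicate 1, COL8A1 was at -0.82 (limma adjusted p = 0.0947), and without CD133- replicate 2 at -1.19 (0.0205). With the mean of its probe sets, or with 1 CD133- array left out and the level filter set anew, it fell below the filter and was not tested. Its partner chain COL8A2 was at background as well, at 4.13 and 3.82 against 3.62 and 3.68. The 20 tested genes next to COL8A1 on chromosome 3 had a median difference of 0.048, with 11 positive, 1 called higher and 1 called lower.

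The 2 transcription starts that RefSeq lists for COL18A1 are shown because it was the member above background that passed the test. Each window runs from 250 bases before to 50 bases after the start, 5′ to 3′ on the plus strand of chromosome 21 in GRCh38.p14, at chr21:45404915-45405214 for the upstream and chr21:45455272-45455571 for the downstream start. Capitals mark the letters of a GC box, GGGCGG on either strand.
COL18A1 upstream start: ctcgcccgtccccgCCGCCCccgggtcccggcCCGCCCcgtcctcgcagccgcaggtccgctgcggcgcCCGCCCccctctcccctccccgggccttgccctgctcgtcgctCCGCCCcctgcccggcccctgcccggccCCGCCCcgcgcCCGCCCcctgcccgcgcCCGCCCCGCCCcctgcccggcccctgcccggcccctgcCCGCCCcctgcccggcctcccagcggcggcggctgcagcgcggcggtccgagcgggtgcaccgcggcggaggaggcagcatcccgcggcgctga
COL18A1 downstream start: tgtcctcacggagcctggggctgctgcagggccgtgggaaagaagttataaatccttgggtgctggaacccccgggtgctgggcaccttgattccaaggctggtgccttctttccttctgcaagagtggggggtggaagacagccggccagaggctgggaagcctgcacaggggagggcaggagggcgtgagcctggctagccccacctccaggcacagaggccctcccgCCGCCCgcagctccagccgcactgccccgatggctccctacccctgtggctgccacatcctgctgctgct
The upstream window held 9 GC boxes, all on the opposite strand and 2 of them sharing a base, at 86.7% G and C. The downstream window held 1 GC box at 66.3% G and C, and a TATAAA on 1 of its strands. Of all 35116 promoter windows of this length, 45.0% held a GC box and 11.5% a TATAAA. Which of the starts was in use in these cells was not measured.

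**Figure D2:**
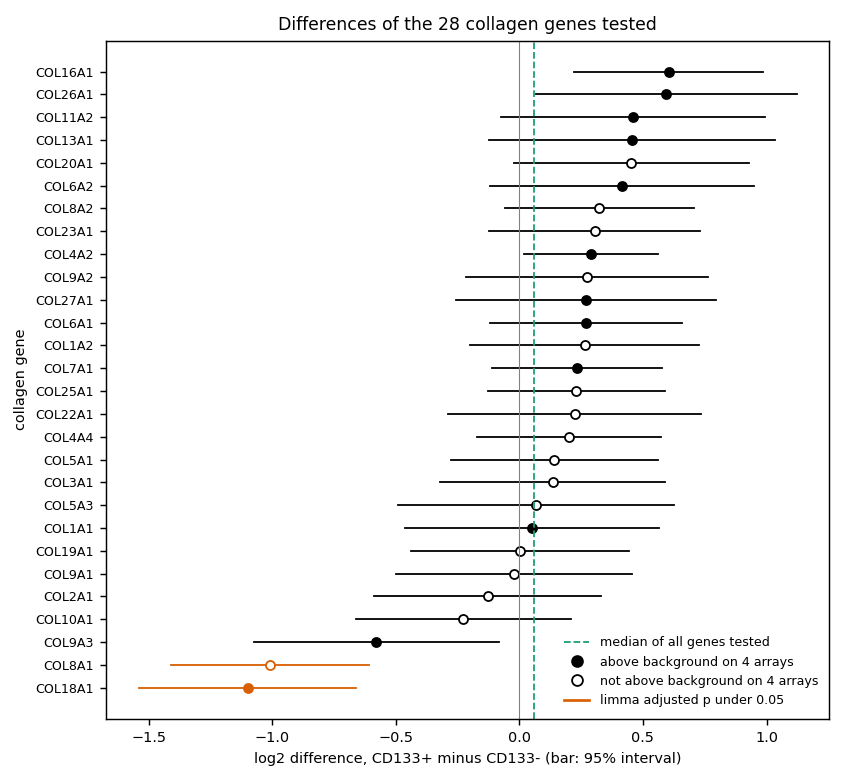
Log2 difference, CD133+ minus CD133- (x axis), of the 28 collagen genes tested (y axis), with 95% intervals from limma; filled points are above background on 4 arrays. COL18A1 at -1.10 and COL8A1 at -1.01 passed, and the other 26 did not; the dashed line is the median of all genes tested, 0.058.

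Collagen IV showed a contrast within a pair of neighbouring genes. COL4A1 and COL4A2 encode the chains of the most widespread type IV molecule, in which they combine, and are transcribed in opposite directions from starts that lie 127 bases apart on chromosome 13. COL4A2 was above background on all arrays with both of its probe sets. The brighter, 211964_at, read 9.11 and 9.21 in CD133+ and 8.78 and 8.97 in CD133- cells, and 211966_at read 7.60 and 7.78 against 7.76 and 7.81. COL4A1 was above background on no array with either probe set. Here 211980_at read 3.91 and 3.82 against 3.54 and 3.58, and 211981_at 3.97 and 3.72 against 3.28 and 3.59. This held in both clones. The difference of COL4A2 was 0.29 (SE 0.12, 95% interval 0.021 to 0.56, limma adjusted p = 0.212) with the brighter probe set and -0.097 with the other. With centred arrays COL4A2 was at 0.13, and with the mean of its probe sets at 0.10. COL4A1 was too low to be tested.

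The other type IV chains are paired in the same way, COL4A3 with COL4A4 on chromosome 2 (starts 419 bases apart) and COL4A5 with COL4A6 on chromosome X (380 bases apart for the nearer of the 2 starts listed for COL4A6). All 4 were at background on every array, with highest single signals of 4.02 for COL4A3, 3.97 for COL4A4, 3.84 for COL4A5 and 3.47 for COL4A6. Of these COL4A4 alone was tested, at 0.20 (SE 0.16, limma adjusted p = 0.516), or 0.07 without CD133- replicate 1. The window of COL4A2 is shown to set the contrast with COL4A1 beside the DNA between their starts. It is on the plus strand, 5′ to 3′, at chr13:110307034-110307333 in GRCh38.p14, and capitals mark the bases between the starts.
COL4A2 window: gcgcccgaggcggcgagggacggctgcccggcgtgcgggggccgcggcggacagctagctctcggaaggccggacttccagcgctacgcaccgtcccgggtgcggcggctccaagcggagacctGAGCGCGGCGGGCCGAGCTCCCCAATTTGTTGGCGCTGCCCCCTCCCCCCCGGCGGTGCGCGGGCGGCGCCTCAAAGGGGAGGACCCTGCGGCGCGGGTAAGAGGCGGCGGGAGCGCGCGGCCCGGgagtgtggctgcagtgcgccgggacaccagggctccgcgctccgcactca
The 126 bases between the starts of COL4A1 and COL4A2 hold a CCAAT and a GC box, GGGCGG, both searched on either strand. The other pairs were searched over whole windows of 300 bases, where COL4A1 and COL4A2 held 1 CCAAT each, with 2 and 1 GC boxes. The windows of a pair overlap, so an element in the shared part is counted in both. That is so for the CCAAT and the GC box between the starts of COL4A1 and COL4A2. The pairs at background differed in their counts: the COL4A3 and COL4A4 windows held no CCAAT, while that of COL4A5 held 2 and that of the nearer COL4A6 start 3. The COL4A3 window held 2 GC boxes, and those of COL4A4, COL4A5 and the nearer COL4A6 start held 0. Of all promoter windows 34.6% held a CCAAT. Windows were listed for 31 of the 43 members, some with several starts. Those of COL6A1, COL1A1, COL9A3, COL20A1, COL3A1, COL22A1, COL2A1, COL8A1, COL1A2, COL14A1, COL5A2 and COL6A5 were not used here. The median G and C content was 66.3% over 13 windows of 9 genes above background on 4 arrays, 61.2% over 30 windows of the other 22 genes, and 58.7% over all promoter windows. A GC box was found in 9 of those 13 windows, in 15 of the other 30 and in 45.0% of all promoter windows. Genes with several starts, COL11A2 and COL18A1 among them, count more than once here, so windows are not independent.

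Among fibrillar collagens, COL1A1, COL27A1 and COL11A2 were above background on 4 arrays, and 0 of the 8 tested passed. COL1A1, the main chain of type I collagen, read 6.86 and 7.16 in CD133+ and 6.70 and 7.22 in CD133- cells, with overlapping arrays and a difference of 0.05 (SE 0.22, 95% interval -0.46 to 0.57, limma adjusted p = 0.918). As deposited, COL1A1 was at -0.11, and with arrays centred on their medians at -0.19. That probe set, 217430_x_at, carries the suffix by which Affymetrix marks probes that may also match other transcripts. A second one was above background on 4 arrays (202312_s_at, 6.10 and 6.86 against 5.76 and 6.20), while 202310_s_at and 202311_s_at were above it on none. COL1A2, which completes the type I molecule, was at background at 3.97 and 3.94 against 3.41 and 3.96, as was COL3A1, the chain of type III collagen, at 3.96 and 4.42 against 4.08 and 4.04. COL11A2, a chain of the cartilage-associated type XI, read 6.04 and 6.40 against 5.59 and 5.92 (difference 0.46, SE 0.23, limma adjusted p = 0.306). COL27A1 read 6.37 and 6.61 against 5.99 and 6.44 (0.27, SE 0.23, limma adjusted p = 0.539), and 1 of its 5 probe sets was above background on 4 arrays. COL27A1 was at 0.04 without CD133- replicate 1, 0.15 without CD133+ replicate 2 and 0.50 without CD133- replicate 2, at 0.18 as deposited, at 0.10 with centred arrays and at 0.08 with the mean of probe sets. COL11A2 was at 0.28 without CD133+ replicate 2 and at 0.30 without CD133- replicate 1. COL5A1, COL5A3 and COL2A1 were tested at background levels with differences of 0.14, 0.07 and -0.13 and mean levels of 4.68, 4.52 and 3.85. COL5A2, COL11A1 and COL24A1 were below the filter, with mean levels of 3.33, 3.18 and 2.91.

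The fibril-associated collagens, which coat fibrils, held the member with the largest positive difference. COL16A1, the chain of type XVI collagen, read 7.84 and 8.21 in CD133+ and 7.44 and 7.40 in CD133- cells. The arrays did not overlap, but the CD133+ arrays differed from each other by more than the CD133- arrays did. The difference was 0.60 (SE 0.17, 95% interval 0.22 to 0.99), and it did not pass (limma adjusted p = 0.0948). Without CD133+ replicate 1 it was 0.79 and passed (limma adjusted p = 0.0396), and without CD133+ replicate 2 it was 0.42 (0.365). With arrays centred on their medians it was 0.36 (limma adjusted p = 0.383). COL9A3, a chain of type IX collagen, went the other way, with 5.33 and 5.63 against 6.08 and 6.03, a difference of -0.58 (SE 0.22, 95% interval -1.07 to -0.084, limma adjusted p = 0.183). COL20A1 stood at 0.45 (SE 0.21, limma adjusted p = 0.263), and at 0.24 with the mean of its probe sets. The type IX partners COL9A1 and COL9A2 differed by -0.02 and 0.27 at mean levels of 4.47 and 4.79. COL19A1 and COL22A1 differed by 0.0035 and 0.22 at mean levels of 4.01 and 3.86. COL12A1, COL14A1 and COL21A1 lay below the filter, with mean levels of 3.66, 3.60 and 2.99.

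Collagen VI, which forms beaded filaments around cells, was represented by COL6A1 and COL6A2, which like COL18A1 lie on chromosome 21. COL6A1 read 7.29 and 7.38 in CD133+ and 6.96 and 7.17 in CD133- cells, which differed by 0.27 (SE 0.17, 95% interval -0.12 to 0.66, limma adjusted p = 0.404). COL6A1 was at 0.09 as deposited, at 0.0076 with centred arrays, at 0.16 without CD133- replicate 1 and at 0.15 with the mean of probe sets. Its 8 probe sets disagreed: 5 had a positive and 3 a negative difference, and 3 were above background on 4 arrays. Among them 212937_s_at, named after its value was seen, read 5.98 and 6.09 against 5.03 and 5.09, a difference of 0.97 that did not pass over all probe sets (limma adjusted p = 0.0954). COL6A2 read 5.85 and 6.22 against 5.47 and 5.76 (0.41, SE 0.23, limma adjusted p = 0.350). COL6A3, the third chain of the common type VI molecule, was below the filter at 3.73 and 3.85 against 3.77 and 3.61, as were COL6A5 and COL6A6 at mean levels of 3.14 and 3.09.

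COL7A1, which forms the anchoring fibrils below stratified epithelia, was above background with both of its probe sets. The brighter read 7.79 and 7.85 against 7.69 and 7.49, a difference of 0.23 (SE 0.15, 95% interval -0.11 to 0.58, limma adjusted p = 0.416) whose sign turned to -0.010 with centred arrays. It was at 0.07 as deposited, at 0.13 without CD133- replicate 2 and at 0.14 with the mean of probe sets. COL13A1, a membrane-spanning collagen, read 6.49 and 6.75 against 5.86 and 6.48 (0.46, SE 0.25, limma adjusted p = 0.347), and COL26A1 6.08 and 6.17 against 5.31 and 5.74 (0.59, SE 0.23, 95% interval 0.068 to 1.12, limma adjusted p = 0.194). Without CD133- replicate 1 COL13A1 was at 0.14 and COL26A1 at 0.38, and without CD133- replicate 2 at 0.77 and 0.81. With centred arrays COL13A1 was at 0.28, and with the mean of probe sets COL13A1 was at 0.30 and COL26A1 at 0.32. For both genes only probe sets with the suffix _x_at were above background on 4 arrays. With such probe sets left out, a step added after seeing the data, neither gene was above background on 4 arrays, and 10 of the 43 genes were. The membrane-spanning COL23A1 and COL25A1 were tested at background levels with differences of 0.30 and 0.23 and mean levels of 4.73 and 4.02. The network collagen COL10A1, known from growth plate cartilage, differed by -0.23 at a mean level of 4.49. COL28A1 and COL15A1, the relative of COL18A1 in the multiplexin group, lay below the filter, with mean levels of 3.34 and 3.16.

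**Figure D3:**
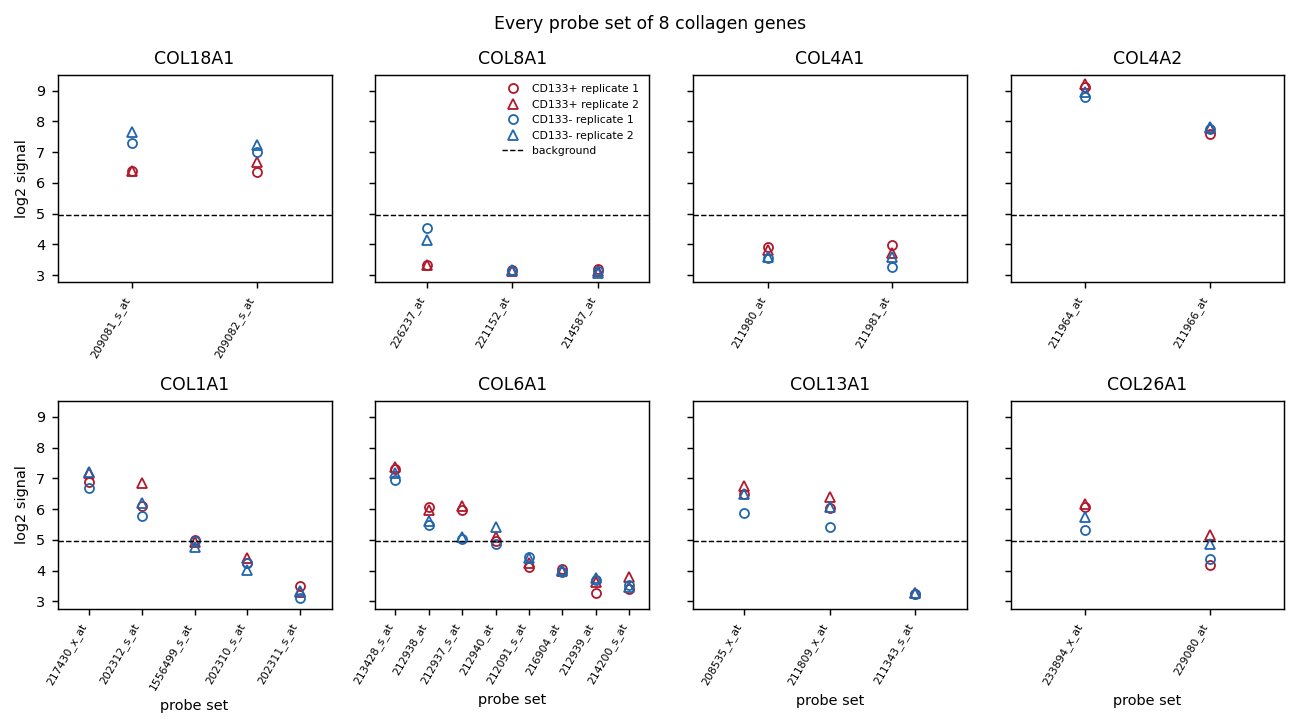
Log2 signal (y axis) of every probe set (x axis) of 8 collagen genes on the CD133+ arrays (red) and CD133- arrays (blue), with the background of 4.95 as a dashed line. Both probe sets of COL18A1 are lower in CD133+ cells, both of COL4A1 lie below and both of COL4A2 above background, and the probe sets of COL1A1, COL6A1 and COL13A1 spread over both sides of it.

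Over the 28 members tested 22 differences were positive, 78.6% against 58.5% of all genes tested, and the median difference was 0.23 against 0.058. In the values as deposited 22 were positive, with medians of 0.22 for the members and 0.028 for all genes, and with arrays centred on their medians 20 were positive, with medians of 0.14 and -0.051. The members lay 0.17, 0.19 and 0.19 above the median of all genes in these settings. The size of that gap moved with other choices. Averaging the probe sets of each gene brought it down to 0.089 (24 members). Keeping every gene whatever its level gave 0.12 (43 members). Raising the level filter to the median moved it the other way, to 0.26 (11 members). The arrays of the clones did not overlap in 15 members with higher and 4 with lower signals in CD133+ cells, 19 of 28 in all, where 51.6% of all genes did so, 30.4% higher and 21.2% lower. Of the 12 members above background on 4 arrays, CD133- replicate 1 was the lowest array in 8 and CD133+ replicate 2 the highest in 9. These arrays were the lowest in 38.9% and the highest in 36.1% of all genes tested. Without CD133- replicate 1 the median of the members was 0.15, against 0.027 for all genes. Their part in the differences was not tested.

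Genes that modify and fold collagen were nearly all expressed, in contrast to the chains themselves. Of the 18 measured, 15 were above background on 4 arrays, against 55.5% of all genes. COLGALT2 and MIA2, also on this list, were not among the 19777 genes. Of the 18 tested, 1 rose and 0 fell, with a median difference of 0.21 and 15 positive. Over all genes tested 3.65% passed, 58.5% were positive and the median difference was 0.058. This list and those that follow were drawn up with earlier results of these data known, so their counts are descriptions only. FKBP14, a peptidyl-prolyl isomerase of the endoplasmic reticulum that binds collagen, read 9.44 and 9.54 in CD133+ and 8.67 and 8.58 in CD133- cells. It rose by 0.86 (SE 0.11, 1.82-fold, limma adjusted p = 0.0105). Its other 2 probe sets were at 0.56 and -0.089, and with the mean of all 3 it did not pass (0.44, limma adjusted p = 0.150), nor with arrays centred on their medians (0.70, adjusted p = 0.0501). FKBP14 lies on chromosome 7, where the 20 tested genes next to it had a median difference of 0.28, with 17 positive and 3 called higher. The collagen chaperone SERPINH1 was at 0.46 (SE 0.11, limma adjusted p = 0.0642), P4HB, the shared subunit of prolyl 4-hydroxylase, at 0.28 (SE 0.072, adjusted p = 0.0813) and the prolyl 3-hydroxylase P3H2 at -0.80 (SE 0.22, adjusted p = 0.0975).

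Among genes that process procollagen and cross-link fibrils, 1 of 11 tested fell and 0 rose, with a median difference of 0.033. The share passing over all genes tested was 3.65%, and their median difference was 0.058. LOXL1, a lysyl oxidase that cross-links collagen and elastin, read 5.79 and 5.76 in CD133+ and 6.64 and 6.83 in CD133- cells. It fell by 0.96 (SE 0.20, limma adjusted p = 0.0399), and it did not pass with any single array left out (adjusted p from 0.0828 to 0.122). BMP1, the procollagen C-proteinase, was at 0.64 (SE 0.18, limma adjusted p = 0.107) and LOXL4 at 0.81 (SE 0.27, adjusted p = 0.144). Of 11 collagen-binding matrix proteins tested, SMOC2, a calcium-binding matrix protein, fell and 0 rose, with a median of 0.30. SMOC2 had been placed in this list with its difference already known, so its call is no result about the list. SMOC2 read 4.10 and 3.73 in CD133+ and 6.49 and 5.67 in CD133- cells, which is at least 2.18-fold lower since the CD133+ signals were at background (limma adjusted p = 0.0125, measured means 3.91 and 6.08). The other probe set of SMOC2 was at -0.27 (limma adjusted p = 0.523 over all probe sets), and the mean of both at -1.22 against -2.17 for the brighter (limma adjusted p = 0.0201). Without a trend of variance on level the limma adjusted p was 0.0756 for SMOC2 and 0.0773 for FKBP14 and LOXL1. The 20 tested genes next to LOXL1 had a median difference of -0.0070 with 10 positive, and those next to SMOC2 one of 0.039 with 12 positive. NID1, which links laminin to type IV collagen, was at -0.69 (SE 0.23, limma adjusted p = 0.149). BGN and FMOD, small proteoglycans that bind fibrils, were at 0.61 (SE 0.22, adjusted p = 0.172) and 0.50 (SE 0.19, adjusted p = 0.191).

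None of the 10 collagen receptors tested passed in limma. Of their differences 8 were positive, where 58.5% of all genes tested were. Their median difference was 0.12, against 0.058 for all genes. DDR1, also on this list, was not among the 19777 genes and was not tested. ITGB1, the beta chain of the collagen-binding integrins, read 11.54 and 11.51 against 11.34 and 11.30 (0.21, SE 0.075, adjusted p = 0.177), and ITGA2, the alpha chain of the main epithelial collagen receptor, was at 0.044 (SE 0.16, adjusted p = 0.901). ADGRG1, a receptor for type III collagen, was at -0.23 (SE 0.077, adjusted p = 0.147). LAIR1, an inhibitory collagen receptor of leukocytes, was at 0.58 (SE 0.26, limma adjusted p = 0.254) and MRC2, which takes up collagen for breakdown, at 0.53 (SE 0.29, adjusted p = 0.342). Of 4 collagenases and gelatinases tested 0 passed in limma. MMP14, a membrane-bound collagenase, was at 0.77 (SE 0.20, limma adjusted p = 0.0857).

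**Figure D4:**
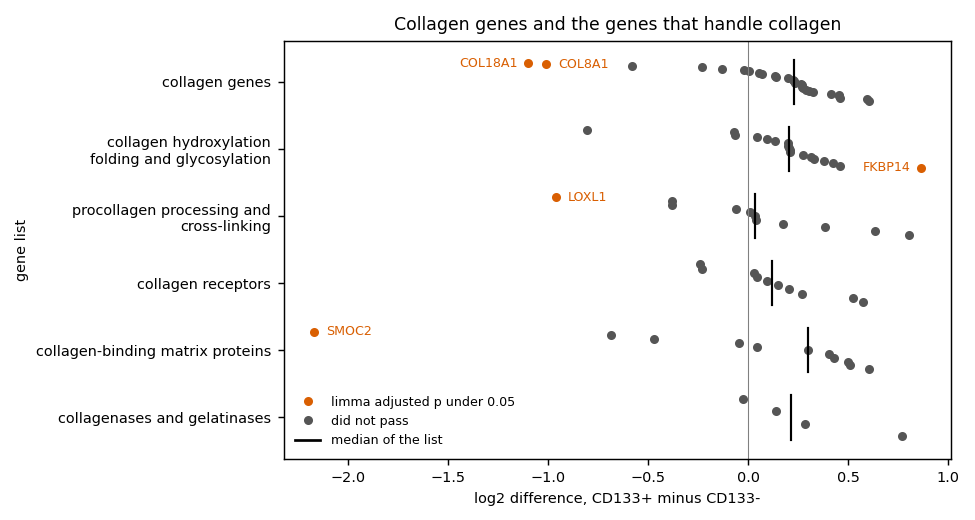
Log2 difference, CD133+ minus CD133- (x axis), of each tested gene (point) in the collagen genes and in 5 lists of genes that handle collagen (y axis), with the median of each list as a bar. The 5 genes that passed are named: COL18A1, COL8A1, LOXL1 and SMOC2 lower and FKBP14 higher in CD133+ cells. COL8A1 was at background on all 4 arrays and entered the test only through the CD133- arrays. SMOC2 had been placed in its list with its difference already known.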

How the data were processed

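Total RNA of 2 CD133+ and 2 CD133- arrays of SW620 clones was measured on Affymetrix arrays. The deposited values were log2 signals of 54675 probe sets, made by the authors with Affymetrix Expression Console, per the submitters' processing notes. For version, background correction and summarisation, the sources used here name none. The 62 control probe sets were left out. Array medians differed by 0.144, above the limit of 0.1, so values were quantile-normalized, which removes overall shifts between groups. The platform annotation named 1 gene for 41091 probe sets, covering 19777 genes. The 3956 genes in the lowest 20% by mean level were left out, and 15821 were fitted with limma 3.58.1 (R 4.3.3, eBayes with trend) and Benjamini-Hochberg adjustment. The fit was also run on simulated data with differences of known size. Noise there was independent between arrays, unlike that of same-numbered arrays here, so the run does not measure the error of these calls. Promoter windows came from RefSeq (GRCh38.p14). Lists are described by counts and medians, with no set test.

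Members, lists and tests were chosen with earlier results of these data known. Genes named in full are PROM1, members that passed, the 8 brightest members, the 8 with the largest difference, the type IV pairs, and in other lists those that passed or up to 4 with the smallest p, and others were added after their values were seen. Alternatives were the values as deposited, median centring, 2 other level filters, no variance trend, the mean of probe sets, single probe sets, a replicate block, and leaving out each array. COL17A1 was not analysed here.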

Additional observations from a re-analysis of the deposited data

How the results depend on the processing

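The number of arrays limits every result. COL18A1 and COL8A1 kept a negative difference wherever their brightest probe set was tested, with limma adjusted p over all alternatives from 0.00179 to 0.228 for COL18A1 and from 0.00450 to 0.990 for COL8A1, whose other probe sets were at 0.0045 and 0.073. With the filter at the median level 1 member was called lower (COL8A1 was not tested), with the mean of probe sets 1, and without the variance trend 0. Leaving out 1 array gave 0 to 2 members lower and 0 to 1 higher, 1 to 2 genes of the other lists in each direction, and 45 to 245 genes higher and 75 to 480 lower over the whole table. Without CD133- replicate 1 there were 45 higher and 75 lower, and without CD133- replicate 2 112 and 233. The clone left with 1 array borrows the spread of the other clone there. The cause was not tested for any of these.

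Of all genes tested 207 were higher and 370 lower. Genes called higher were 88 in the values as deposited (21.3% of calls, against 35.9%) and 52 with centred arrays (11.3%). Without the trend 4 were higher and 8 lower, and with the mean of probe sets 74 and 173. In the other lists 0 genes were higher with centred arrays, without the trend or with the mean of probe sets. There 1 was lower with the filter at the median level and 0 without the trend. With background at the level filter 22 collagen genes were above it, and the share of all genes there was not counted.

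Same-numbered arrays deviated together (r = 0.429 across genes), but with 2 pairs the numbers are not known to pair the arrays. The replicate block gave 1566 genes higher and 1464 lower, 3 members higher (COL16A1, COL26A1 and COL4A2), 3 lower (COL18A1, COL8A1 and COL9A3), and 11 genes higher and 5 lower in the other lists.

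Except for single probe sets of COL8A1 (given with its p) and FKBP14 (-0.089 for 1 of 3), signs that turned were those of genes that did not pass. COL1A1 was at -0.11 as deposited, -0.19 centred, and from -0.21 to 0.31 with 1 array left out (-0.095 without CD133+ replicate 2), and COL7A1 was at -0.010 centred. Single probe sets of the opposite sign were at -0.0056 for COL13A1, -0.085 and -0.063 for COL27A1, -0.097 for COL4A2, -0.047 and -0.21 for COL4A4, and -0.12, -0.24 and -0.28 for COL6A1.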

Other observations

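COL18A1-AS1, transcribed from the opposite strand of COL18A1, had 1 probe set, which read 3.58 and 3.94 in CD133+ and 3.66 and 3.76 in CD133- cells, below background on each.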
